A study of Mus musculus with 2 samples.

Results

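The genes described are 10 that serve lipid uptake and storage at the endothelium: Lpl, Gpihbp1, Lipg, Cd36, Scarb1, Fabp4, Fabp5, Hilpda, Plin2 and Apoe. They were picked by symbol, with their levels in these libraries already known, and all 10 were found among the 31053 genes of the deposited matrices. Their levels are therefore given as a description. Mouse lung cells were profiled by 10x Chromium 3′ single-cell RNA sequencing in 1 normoxia library and 1 hypoxia library. Both came from mice of strain C57/B6, aged 2 to 4 months, that carried no transgene in the labels, and whose dissociated lungs were depleted with antibody-coated beads of CD45+ leukocytes and CD326+ epithelial cells. The hypoxia mice were males kept for 3 weeks in a chamber at 10% inspired O2, and the other library is labelled as normoxia only. The hypoxia experiment is described as made on 3 wild-type animals, while how many animals went into each library is not given in the sources used here, so the condition, the library and the animals behind it cannot be told apart, and no comparison between conditions has a replicate check or a p-value. Intervals printed below are exact 95% intervals that cover counting error only.

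The normoxia matrix held 2223 cells and the hypoxia matrix 809, of which 1348 and 689 passed the filters, with medians of 3453 and 2224 UMIs (unique molecular identifiers, each standing for 1 captured transcript). The mitochondrial limit removed 835 normoxia and 107 hypoxia cells, and 1 cell barcode occurred in both libraries. Cells were clustered without the 10 genes and classes were named from marker lists. Of the kept cells, 847 in normoxia and 479 in hypoxia were endothelial (EC)-like. These comprised 633 and 373 general capillary (gCap)-like cells, 124 and 60 aerocyte-like cells, 58 and 21 venous-like cells, 19 and 16 arterial-like cells and 11 and 5 lymphatic-like cells, with 2 and 4 cycling cells left without a subtype. The gCap-like cells carried Sema3c in 92.1%, Cd93 in 89.0% and Kit in 74.0% of cells, but Plvap in 58.8%, Aplnr in 36.8% and Glp1r in only 7.75%. Arterial-like cells carried Efnb2 in 91.4% and Gja4 in 82.9%, but Gja5 in 34.3%, Bmx in 31.4% and Dkk2 in 2.86%. Aerocyte-like cells carried Car4 in 94.0% and Ednrb in 85.9%, and venous-like cells carried Slc6a2 in 84.8% and Selp in 11.4%. The gCap-like cells of the libraries lay mostly in different clusters: a cluster led by Ntrk2 held 169 hypoxia cells, or 45.3% of the hypoxia gCap-like cells, and 4 normoxia cells, and a cluster led by Gm16486 held 111 normoxia and no hypoxia cells. A further 159 normoxia and 142 hypoxia cells, low in UMIs, stayed unnamed. Their clusters had 9 and 8 of 12 endothelial markers detected, but none among the 10 leading genes. The alveolar fibroblast-like class joined 2 unlike clusters. One, led by Pdgfra and Itga8, held 81 normoxia and 2 hypoxia cells. The other, led by Cbr2 and Fam183b, held 96 normoxia and 33 hypoxia cells with 4 of 9 fibroblast markers, and 5 of its 10 leading genes, namely Fam183b, 1110017D15Rik, Ccdc153, Tmem212 and Dynlrb2, are genes of ciliated airway cells, beside Mfap4 and Ces1d of fibroblasts, so its name is doubtful. The clusters are therefore given apart, and the class is not compared between the libraries.

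Capillary endothelium is the site at which triglyceride-rich lipoproteins are unloaded. Lipoprotein lipase (Lpl) is carried across the capillary endothelial cell and held on its luminal face by the anchor protein Gpihbp1, where it releases fatty acids, and endothelial lipase (Lipg) acts mainly on phospholipids of high-density lipoprotein. Fatty acids enter through the scavenger receptor Cd36, and Scarb1 binds high-density lipoprotein and takes up its cholesteryl esters. Fabp4 and Fabp5 bind fatty acids in the cytosol, Plin2 coats lipid droplets, and Hilpda inhibits adipose triglyceride lipase at the droplet and is a known target of hypoxia-inducible factors. Apoe is a lipoprotein ligand for receptors of the low-density lipoprotein family. The aerocyte is the thin capillary cell of gas exchange, and the gCap cell is the other, more common capillary cell of the alveolus.

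Because hypoxia-inducible factors bind the cores ACGTG and GCGTG, the promoter windows of the genes were searched for these letters on both strands. Windows run from 250 bases before to 50 bases after each transcript start in the RefSeq annotation of GRCm38.p6, and they were matched for 4 of the 10 genes, namely Hilpda, Plin2, Cd36 and Apoe. The 2 Hilpda windows held the cores at 3 positions and the Plin2 window at 3, of which a pair on opposite strands shares the palindrome CACGTG. No core lay in the Cd36 window or the 3 Apoe windows. Of all 32851 windows, 43.8% held at least 1 core, so a match is common and says nothing of binding. The Hilpda and Plin2 cores are shown because these are the droplet genes of the set. Among members with at least 100 UMIs in gCap-like cells of both libraries, Hilpda also differed most between them. Cores are in capitals with 12 bases on each side and read in the direction of the gene. Distances are those of the first base of a core, so the Plin2 core placed 3 bases before the start spans the start.
Hilpda, chr6:29272503-29272531 (+), core 111 bases before the downstream start: caaccgcgagccGCGTGctttccgtgact
Hilpda, chr6:29272571-29272599 (+), core 43 bases before the downstream start: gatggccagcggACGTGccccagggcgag
Hilpda, chr6:29272606-29272634 (+), core 8 bases before the downstream start: caggttcggtacGCGTGcgcagtctccga
Plin2, chr4:86670046-86670074 (−), core 3 bases before the start: agctgggctatcACGTGgctcggaggctt
Plin2, chr4:86670129-86670157 (−), core on the opposite strand, 86 bases before the start: ggttggggttccCACGCcctcatccccaa

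EC-like cells held more UMIs than all other kept cells together for 7 of the genes in both libraries. Over all genes they held 3567704 of 5173361 kept UMIs in normoxia and 1952482 of 2294966 in hypoxia, a larger part in hypoxia. A majority in EC-like cells is therefore not particular to these genes, and the Fabp5 and Plin2 shares below lay under that of all UMIs in both libraries. In normoxia, the EC-like share of a gene's UMIs was 92.9% for Scarb1, 91.8% for Cd36, 90.7% for Gpihbp1, 89.3% for Hilpda and 80.2% for Lpl, and the hypoxia shares were 95.1%, 92.0%, 88.2%, 90.9% and 86.5%. Fabp4 was sparse, with 92.4% of 66 normoxia and 86.7% of 15 hypoxia UMIs in EC-like cells. The Fabp5 share was 51.3% in normoxia, where 54 of 158 UMIs came from 1 AT2-like cell, and 76.4% in hypoxia. Plin2 had 47.4% of its UMIs in EC-like cells in normoxia and 75.9% in hypoxia. Apoe and Lipg lay mostly outside the endothelium in normoxia: 88.9% of 3346 Apoe UMIs lay in fibroblast-like cells, 487 of them in the Cbr2-led cluster, and 91.8% of 219 Lipg UMIs in pericyte-like cells.

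**Figure D1:**
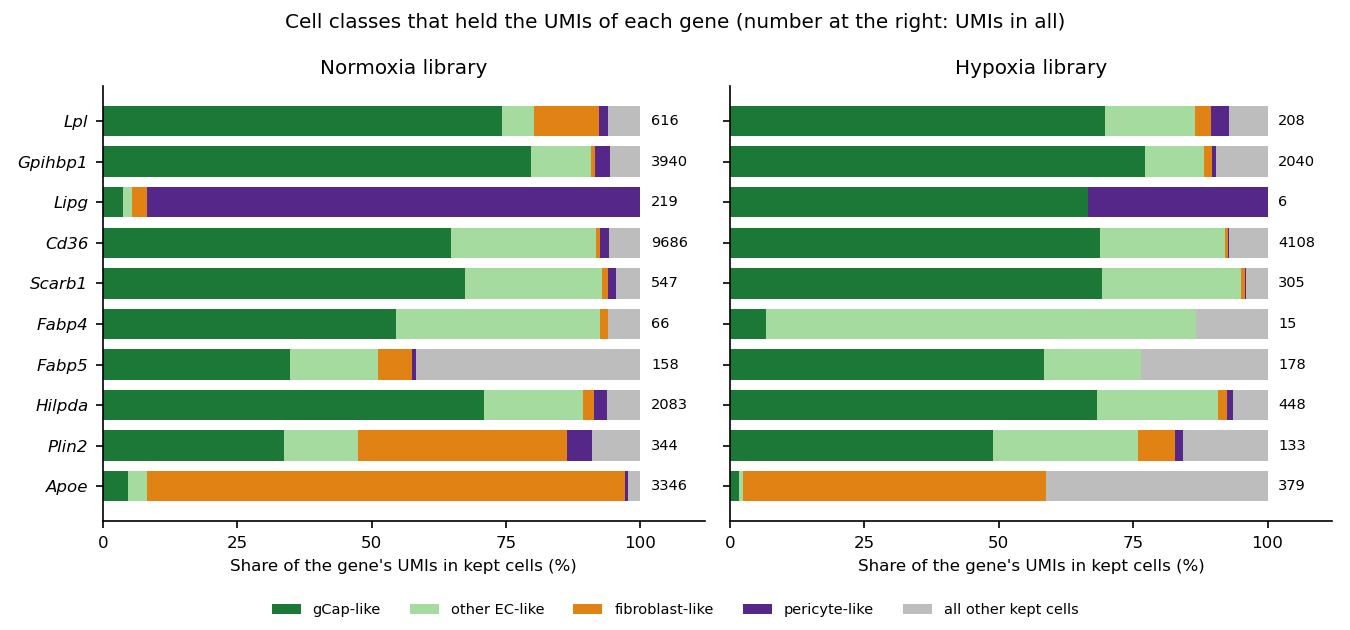
Stacked bars give the share (%) of each gene's UMIs that fell in gCap-like, other EC-like, fibroblast-like, pericyte-like and all other kept cells, for the normoxia library (left) and the hypoxia library (right), with the number of UMIs at the right. Green dominates for Lpl, Gpihbp1, Cd36, Scarb1 and Hilpda, orange for Apoe, and purple for Lipg in normoxia, while the hypoxia bar of Lipg rests on 6 UMIs.

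Among the lipolysis genes, Lpl and its anchor Gpihbp1 were higher in gCap-like than in aerocyte-like cells. Levels are given as UMIs per 1000000 UMIs of the class (CPM). Lpl stood at 194 CPM (176 to 212) in normoxia gCap-like cells, from 457 UMIs in 214 of 633 cells, and at 103 CPM (86.8 to 121) in hypoxia, from 145 UMIs in 80 of 373 cells. In aerocyte-like cells it was close to absent, at 8.50 CPM from 6 UMIs in normoxia and 5.95 CPM from 2 UMIs in hypoxia. The gCap-like over aerocyte-like ratio of Lpl was 22.8 (10.4 to 62.4) in normoxia and 17.3 (4.70 to 144) in hypoxia, so the libraries had the same order. Gpihbp1 reached 1331 CPM in normoxia and 1117 CPM in hypoxia gCap-like cells, against 126 and 101 CPM in aerocyte-like cells, for ratios of 10.6 (8.55 to 13.2) and 11.0 (7.87 to 16.0). The ratios depended on the processing and on how the classes were drawn. In normoxia that of Gpihbp1 ran from 8.18 as a mean over cells to 15.2 with marker gates per cell. The normoxia Lpl ratio ran from 15.5 with up to 10% mitochondrial UMIs to 33.5 without the cell of most UMIs. In hypoxia the Gpihbp1 ratio was 5.89 with up to 6000 detected genes or as a mean over cells and 6.94 with the libraries clustered apart. It was 5.73 with marker gates per cell and 16.6 with the aerocyte-like cluster led by Ednrb alone. The hypoxia Lpl ratio ran from 3.46 with marker gates to 33.1 without the cell of most UMIs. The gene lies at chr15:75596628-75599481 (+) in GENCODE vM21 on GRCm38, and Lpl at chr8:68880491-68907448 (+).

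The pair was not confined to gCap-like cells. Arterial-like cells had levels near those of gCap-like cells in normoxia and more Lpl in hypoxia. Gpihbp1 was at 1221 CPM (1024 to 1444) in the 19 normoxia and 985 CPM (784 to 1221) in the 16 hypoxia arterial-like cells, and at 585 CPM (506 to 673) and 1036 CPM (838 to 1266) in venous-like cells. Lpl was at 180 CPM (110 to 277) and 391 CPM (270 to 550) in arterial-like cells, with 12 of the 33 hypoxia UMIs in 1 cell. In venous-like cells Lpl gave 10 UMIs in normoxia and none in hypoxia, where 3 counts would correspond to 32.7 CPM, so no difference could be detected at this depth. Among fibroblast-like classes, Lpl was at 243 CPM (164 to 347) in 14 normoxia adventitial cells and 38.2 CPM (23.9 to 57.8) in the 81 cells of the Pdgfra-led cluster. In normoxia, Lpl intervals of neighbouring classes overlapped from gCap-like cells downward, whereas the Gpihbp1 interval of gCap-like cells stood above that of every other class with at least 20 cells.

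Lipg, named for the endothelium, was instead a pericyte transcript here. In normoxia, 46 pericyte-like cells gave 201 UMIs, or 1059 CPM (917 to 1216), in 31 cells, with a median of 2 and a maximum of 23 UMIs per cell. By comparison, gCap-like cells gave 8 UMIs (3.39 CPM, 1.46 to 6.68), aerocyte-like cells 3, venous-like cells 1 and arterial-like cells 0. Within the pericyte-like class the level was uneven. A cluster led by Pdgfrb and Postn had Lipg in 22 of 22 cells at 1570 CPM (1354 to 1810), and a cluster led by Spp1 and Ndufa4l2 had it in 9 of 24 cells at 173 CPM (89.3 to 302). The Spp1-led cluster carried 7272 CPM of the summed endothelial transcripts Cdh5, Pecam1, Cldn5 and Egfl7 against 797 CPM in the Pdgfrb-led cluster, and their part in the lower Lipg level was not tested. The hypoxia library held only 4 pericyte-like cells with 2 Lipg UMIs, which leaves the hypoxia level unknown.

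The uptake genes did not separate the capillary types. Cd36, a gene at chr5:17781690-17888801 (−), was at 2657 CPM in normoxia gCap-like and 2574 CPM in normoxia aerocyte-like cells, and at 2005 and 1859 CPM in hypoxia. The gCap-like over aerocyte-like ratios of 1.03 (0.980 to 1.09) and 1.08 (0.989 to 1.18) both had intervals that include 1. Cd36 was lower in the other endothelial subtypes in normoxia, at 1765 CPM (1626 to 1913) in venous-like, 1616 CPM (1388 to 1870) in arterial-like and 478 CPM (292 to 739) in lymphatic-like cells. Scarb1, at chr5:125277087-125341094 (−), was likewise even between the capillary types, at 156 and 149 CPM in normoxia and 150 and 176 CPM in hypoxia, and venous-like cells had 83.6 CPM (55.6 to 121) in normoxia. No Scarb1 UMI was found in 11 normoxia and 5 hypoxia lymphatic-like cells, where 3 counts would be 71.7 and 387 CPM.

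Cd36 UMIs also lay in classes outside the endothelium. In AT1-like cells (alveolar type I pneumocytes) Cd36 was at 1315 CPM in normoxia and 505 CPM in hypoxia. The 4 endothelial transcripts summed to 2159 and 1853 CPM in these cells, and Gpihbp1 gave 46 UMIs (409 CPM) in normoxia and 2 in hypoxia. Normoxia pericyte-like cells had 790 CPM of Cd36 and 590 CPM of Gpihbp1, and normoxia platelet-like cells 1408.5 and 824 CPM. The part of endothelial RNA in the Cd36 levels of these 3 classes was not tested. In AT2-like cells, the surfactant-producing pneumocytes, Cd36 was at 822 CPM from 38 UMIs in 6 normoxia cells and 613 CPM from 35 UMIs in 8 hypoxia cells. There Gpihbp1 had no UMI in either library and the 4 endothelial transcripts summed to 21.6 and 52.5 CPM.

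**Figure D2:**
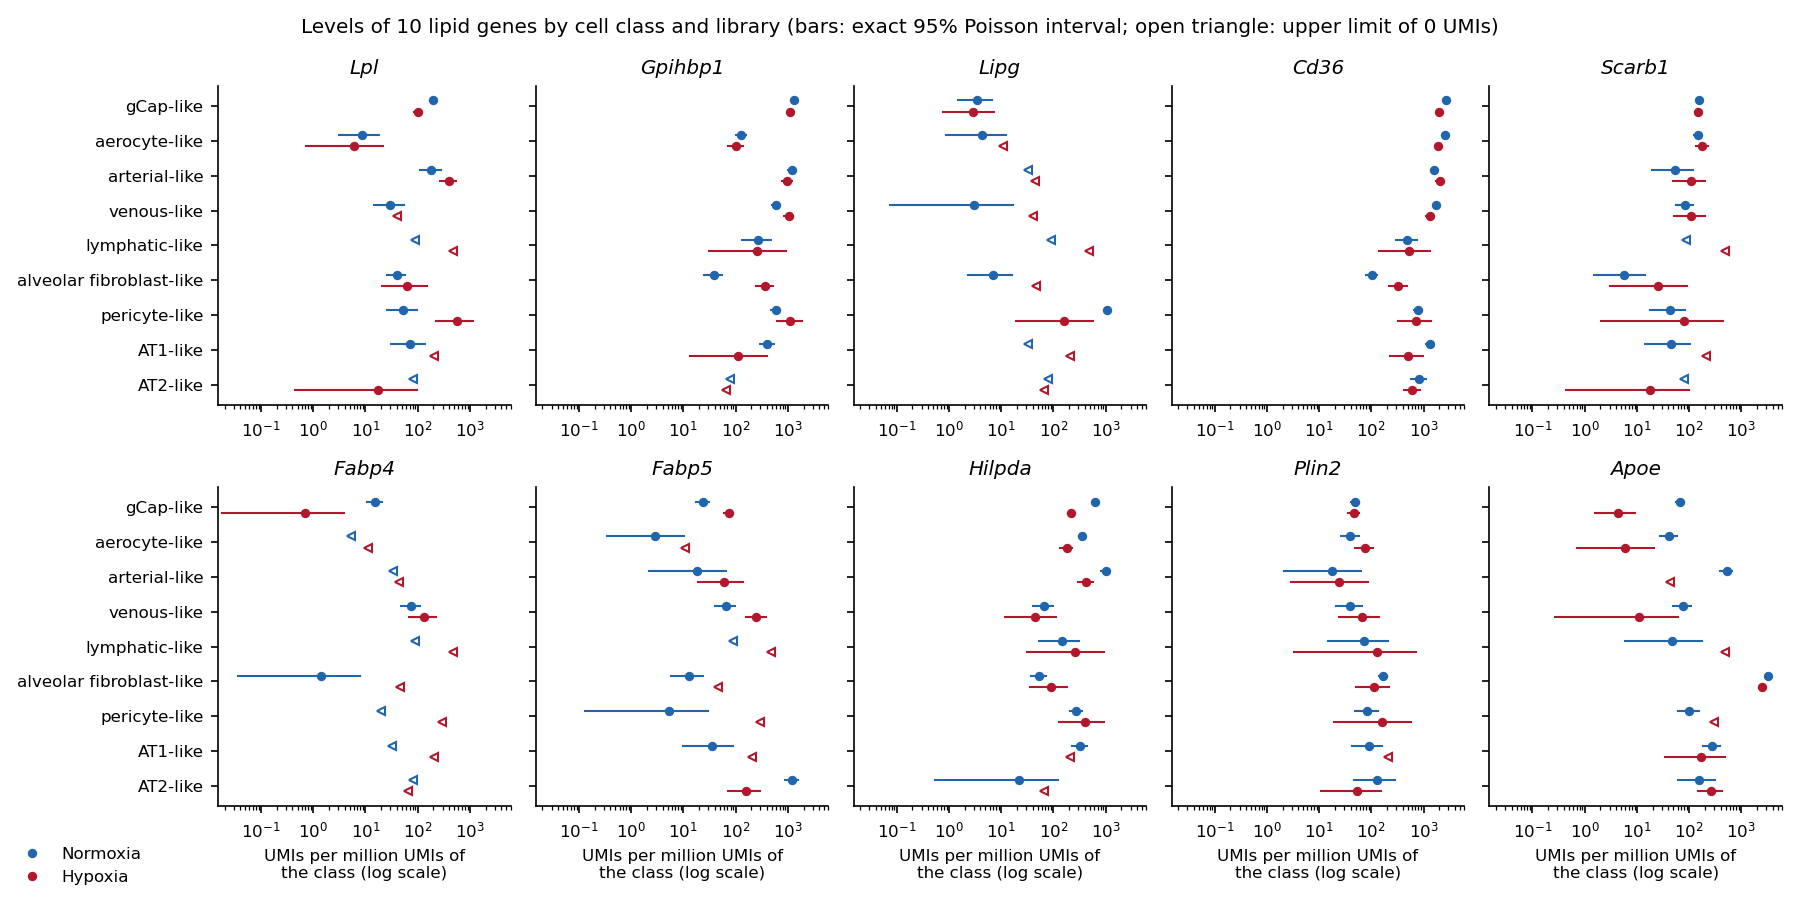
Each panel plots 1 gene by cell class, with the level in CPM on a log axis, blue for normoxia and red for hypoxia, bars for the exact 95% Poisson interval, and an open triangle at the upper limit where a class had 0 UMIs. Lpl and Gpihbp1 drop from gCap-like to aerocyte-like cells, Cd36 and Scarb1 do not, Lipg peaks in pericyte-like cells at 1059 CPM and Apoe is highest in fibroblast-like classes, of which the alveolar one includes the Cbr2-led cluster.

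The binding proteins Fabp4 and Fabp5, whose genes lie at chr3:10204088-10208576 (−) and chr3:10012548-10016607 (+), had their highest endothelial levels in venous-like cells. Venous-like cells held 25 Fabp4 UMIs in 6 of 58 normoxia cells (74.7 CPM, 48.3 to 110) and 12 in 2 of 21 hypoxia cells (131 CPM, 67.6 to 229). Of these, 11 in normoxia and 11 in hypoxia came from 1 cell of that library, so the venous-like Fabp4 levels also rest on few cells. All 36 Fabp4 UMIs of normoxia gCap-like cells sat in 1 cell, and hypoxia gCap-like cells gave 1 UMI, so the gCap level of Fabp4 rests on a single cell. Fabp5 was at 65.7 CPM (41.2 to 99.5) in normoxia and 251 CPM (159 to 376) in hypoxia venous-like cells. There 1 cell gave 8 of 22 normoxia UMIs and 1 cell gave 9 of 23 hypoxia UMIs. In gCap-like cells Fabp5 was at 23.3 CPM (17.6 to 30.3) from 55 UMIs in 36 cells and 73.7 CPM (60.2 to 89.3) from 104 UMIs in 59 cells. Aerocyte-like cells had 2 Fabp5 UMIs in normoxia, a gCap-like over aerocyte-like ratio of 8.22 (2.17 to 69.6), and 0 in hypoxia, where the interval of the ratio starts at 6.60. The hypoxia ratio was lower under some alternatives, at 2.42 (1.45 to 4.27) with up to 6000 detected genes, 3.55 with the libraries clustered apart and 5.89 with marker gates per cell. With up to 10% mitochondrial UMIs it was higher, at 26.2. The highest Fabp5 level by class, 1190 CPM in 6 normoxia AT2-like cells, came from 54 UMIs in 1 cell.

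Hilpda, at chr6:29272488-29275446 (+), was graded across the endothelium in normoxia. Arterial-like cells had 1005 CPM (828 to 1210), gCap-like cells 625 CPM (594 to 658), aerocyte-like cells 347 CPM (305 to 393) and venous-like cells 65.7 CPM (41.2 to 99.5), and none of these intervals overlap. The gCap-like over aerocyte-like ratio was 1.80 (1.57 to 2.07) in normoxia and 1.22 (0.919 to 1.63) in hypoxia. Plin2, at chr4:86648386-86670060 (−), did not follow Hilpda. In normoxia it was at 175 CPM (143 to 213) in the Pdgfra-led fibroblast-like cluster, 147 CPM (89.8 to 227) in the Cbr2-led cluster and, with overlap, in AT1-like cells at 88.8 CPM (42.6 to 163), and stood at 49.1 CPM (40.6 to 58.9) in gCap-like, 39.7 CPM (26.4 to 57.3) in aerocyte-like and 38.8 CPM (20.7 to 66.4) in venous-like cells, whose intervals overlap.

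Apoe, at chr7:19696109-19699188 (−), was highest in fibroblast-like cells. It reached 3135 CPM (2992 to 3283) in all 81 normoxia cells of the Pdgfra-led cluster, and 3460 CPM in 14 normoxia adventitial and 2593 CPM in 16 normoxia myofibroblast-like cells. The Cbr2-led cluster had 3580 CPM (3269 to 3912) in normoxia and 2085 CPM (1742 to 2475) in hypoxia. Leukocyte-like cells had 136 Apoe UMIs in hypoxia, 135 of them in 1 of 3 cells. Normoxia gCap-like cells held 158 Apoe UMIs in 57 of 633 cells, and 124 of these lay in 1 cluster of 53 cells led by Marcksl1, at 354 CPM (295 to 423) in 29 cells.

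Of the 7 members with at least 50 UMIs in each library's pair of capillary classes, 3 (Lpl, Gpihbp1 and Fabp5) were at least 2-fold higher in gCap-like than aerocyte-like cells in both libraries, beside 7.27% of the 5392 genes measured, and 0 were at least 2-fold lower, beside 4.36%. The minimum was on the UMIs of both classes together. Lpl and Fabp5 passed it through gCap-like cells, with 6 and 2 UMIs in normoxia and 2 and 0 in hypoxia aerocyte-like cells. The median gCap-like over aerocyte-like ratio of the measured members was 1.72 in normoxia (8 genes) and 1.22 in hypoxia (7 genes), against 1.03 and 1.07 over all genes measured. Clusters and their names were set without the 10 genes. The genes were chosen with these values known, so the counts and medians describe the set and do not test it.

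**Figure D3:**
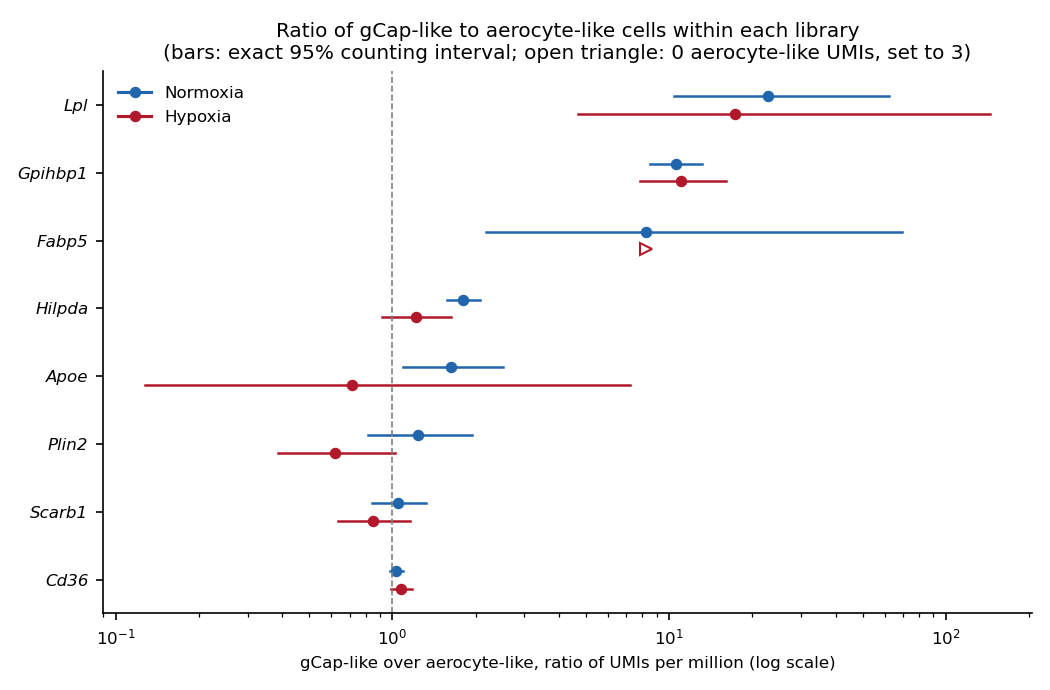
Points give the ratio of the level in gCap-like cells to that in aerocyte-like cells on a log axis for 8 genes, blue for normoxia and red for hypoxia, with exact 95% counting intervals and an open triangle where the aerocyte-like cells had 0 UMIs and were set to 3. Lpl, Gpihbp1 and Fabp5 lie well to the right of the dashed line at 1 in both libraries, and Cd36 and Scarb1 lie on it.

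Among members with at least 50 UMIs in gCap-like cells, Hilpda, Lpl, Cd36, Gpihbp1 and Apoe were lower in hypoxia, with intervals below 1. The largest differences were those of Apoe, 15.7-fold lower from 158 and 6 UMIs, and Fabp5, 3.17-fold higher from 55 and 104 UMIs. Among members with at least 100 UMIs in both libraries, Hilpda differed most, 2.88-fold lower. Hilpda had 1476 UMIs in 447 of 633 normoxia cells and 306 UMIs in 138 of 373 hypoxia cells, and its level went from 625 to 217 CPM, a hypoxia over normoxia ratio of 0.347 (0.306 to 0.393). Lpl had a ratio of 0.531 (0.438 to 0.642), Cd36 of 0.755 (0.722 to 0.789) and Gpihbp1 of 0.839 (0.789 to 0.892). With up to 10% mitochondrial UMIs these ratios were 0.651, 0.815 and 0.921, and without the Ntrk2-led cluster 0.488, 0.638 and 0.722. Scarb1, at 0.957 (0.804 to 1.14), and Plin2, at 0.938 (0.681 to 1.28), had intervals that include 1, and without the Ntrk2-led cluster the Plin2 ratio was 0.611 (0.331 to 1.05). Fabp5 went the other way, with a ratio of 3.17 (2.26 to 4.47).

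Counted against all genes, 3 of the 8 members with at least 50 UMIs in gCap-like cells (Lpl, Hilpda and Apoe) were at least 1.5-fold lower in hypoxia, beside 10% of 7679 genes, and 1 (Fabp5) was at least 1.5-fold higher, beside 9.98%. Over all EC-like cells, 4 of 9 were at least 1.5-fold lower, the same 3 and Fabp4, beside 9.4% of 8703 genes, and Fabp5 was higher, beside 8.05%. The Fabp4 call rests on 36 of 61 normoxia UMIs from 1 gCap-like cell. Without the cell of most UMIs of each gene 3 members were lower, as fewer than 50 Fabp4 UMIs were left. The Fabp4 ratio was then 0.146 (0.0168 to 0.586). Lpl was just past that fold in EC-like cells, with a ratio of 0.666, and short of it under several alternatives, at up to 0.708. The median ratio of the measured members was 0.797 in gCap-like and 0.777 in EC-like cells, against 1.03 over all genes measured in either. Because the genes were chosen with these values known, the counts describe the set and do not test it.

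The Hilpda difference was seen in other subtypes. In aerocyte-like cells Hilpda was at 347 and 179 CPM, for a ratio of 0.514 (0.381 to 0.685), and in arterial-like cells at 1005 and 415 CPM, a ratio of 0.413 (0.274 to 0.609). Venous-like cells had 22 and 4 UMIs, a ratio of 0.664 with an interval from 0.166 to 1.95. Cd36 had ratios of 0.722 (0.659 to 0.792) in aerocyte-like and 0.766 (0.626 to 0.931) in venous-like cells but 1.26 (1.01 to 1.56) in the few arterial-like cells. Gpihbp1 had a ratio of 1.77 (1.37 to 2.27) in venous-like cells, and Fabp5 one of 3.82 (2.03 to 7.18) there. Lpl had a ratio of 2.18 (1.22 to 4.01) in arterial-like cells, and Plin2 one of 1.88 (1.05 to 3.34) in aerocyte-like cells. These differences between subtypes have no replicate behind them and were not tested.

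**Figure D4:**
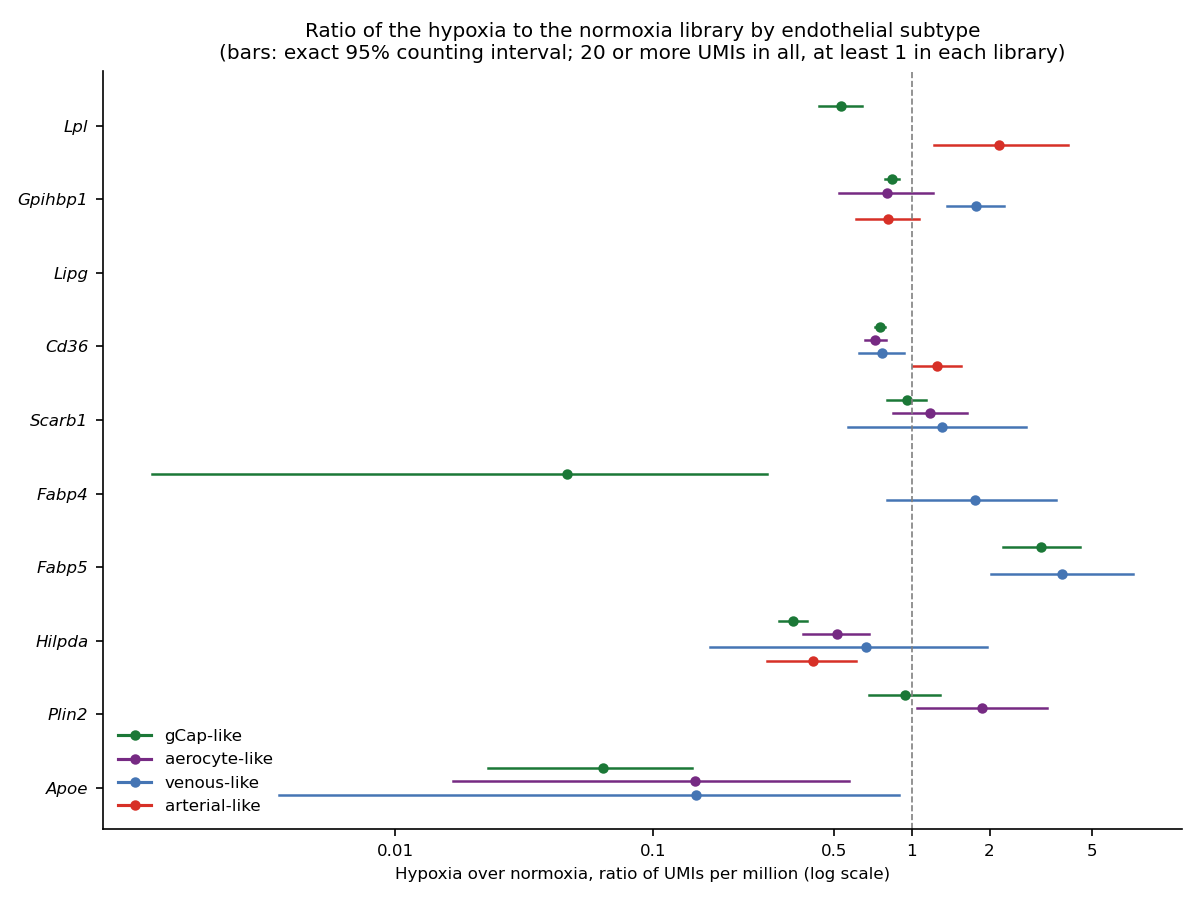
Hypoxia over normoxia ratio of the level on a log axis, by gene and by endothelial subtype (colours), with exact 95% counting intervals, for pairs with at least 20 UMIs in all and at least 1 in each library. All 4 Hilpda points lie left of 1, both Fabp5 points lie right of it, and Gpihbp1 and Lpl lie on different sides in different subtypes.

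Apoe was also lower in hypoxia endothelium, beside a shift in other fibroblast transcripts. In gCap-like cells it was at 66.9 CPM in normoxia and, with 6 UMIs in 4 of 373 cells, at 4.25 CPM in hypoxia, for a ratio of 0.0636 (0.0230 to 0.142). The Marcksl1-led cluster, with 53 normoxia and 2 hypoxia cells, gave 124 of the 158 normoxia UMIs. Within the 4 clusters that held at least 10 cells of each library, 3 ratios were below 1, from 0 to 0.458, and 0 of the intervals lay below 1. In arterial-like cells, 58 UMIs in 8 of 19 normoxia cells, 21 of them in 1 cell, stood against 0 UMIs in 16 hypoxia cells. Set to 3 counts over the class, hypoxia was 14.6-fold lower, and the interval of the ratio reached up to 0.0868. The summed fibroblast transcripts Dcn, Mfap4, Col1a1, Col1a2 and Col3a1 in gCap-like cells were at 67.3 CPM in normoxia and 15.6 CPM in hypoxia. Among gCap-like cells without a UMI of these 5 transcripts the Apoe ratio was 0.0353 (0.000875 to 0.207). Fewer than the minimum of 50 Apoe UMIs were left there. Most of the 158 normoxia UMIs therefore lay in the 47 of 633 normoxia cells that carried such transcripts. The ratio without those cells rests on no more than the 6 hypoxia UMIs above, and leaving them out does not remove free RNA. The normoxia library also held 81 cells of the Pdgfra-led fibroblast-like cluster against 2, and the part of fibroblast RNA in the remaining Apoe values was not tested.

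Shares of cells moved as the levels did. With each cell thinned to 1000 UMIs, which left out 36 gCap-like cells of each library, Hilpda was detected in 39.7% of normoxia and 18.7% of hypoxia gCap-like cells, against 70.6% and 37.0% without thinning. Lpl was detected in 16.8% and 7.42% after thinning (33.8% and 21.5% before), Gpihbp1 in 65.2% and 56.7% (84.8% and 76.1%), Cd36 in 88.4% and 77.2% (94.9% and 87.1%), and Fabp5 in 2.01% and 6.83% (5.69% and 15.8%). Normoxia alveolar fibroblast-like cells, which as fibroblasts should lack the endothelial anchor Gpihbp1 but include the Cbr2-led cluster of doubtful name, gave 4.0% for that gene after thinning (8.48% before). Median depths were 3608 and 3234 UMIs in gCap-like and 2720 UMIs in those fibroblast-like cells.

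Since the libraries filled different gCap-like clusters, the ratios were also taken within the 4 clusters that held at least 10 cells of each. Hilpda was lower in hypoxia in 4 of 4, with ratios from 0.231 to 0.413 and every interval below 1. Lpl was lower in 4 of 4, from 0.151 to 0.828, with 3 intervals below 1, and Cd36 in 4 of 4, from 0.555 to 0.821, with 3 intervals below 1. Gpihbp1 was lower in 3 and higher in 1, from 0.640 to 1.10. Fabp5 had a ratio in 3 clusters, from 1.02 to 8.13, of which 1 interval lay above 1, and in the fourth, led by Cxcl9, 0 normoxia UMIs stood beside 6 in hypoxia.

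Across clusters of 20 or more gCap-like cells, Hilpda ranged from 477 to 950 CPM over 8 normoxia clusters, highest in the one led by Dnah8 and Plvap, and from 157 to 253 CPM over 5 hypoxia clusters, so the ranges did not overlap. Lpl ranged from 133 to 347 CPM in normoxia and from 29.8 to 145 CPM in hypoxia, and Cd36 from 1566 to 3009 and from 1243 to 2226 CPM, both with overlap. Gpihbp1 ranged from 870 to 1708 CPM and from 557 to 1499 CPM, lowest in either library in the cluster led by Gap43. Fabp5 ranged from 0 to 51.5 CPM in normoxia and from 38.7 to 129 CPM in hypoxia. The Ntrk2-led hypoxia cluster had 224 CPM of Hilpda, 2175 CPM of Cd36 and 79.1 CPM of Fabp5.

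**Figure D5:**
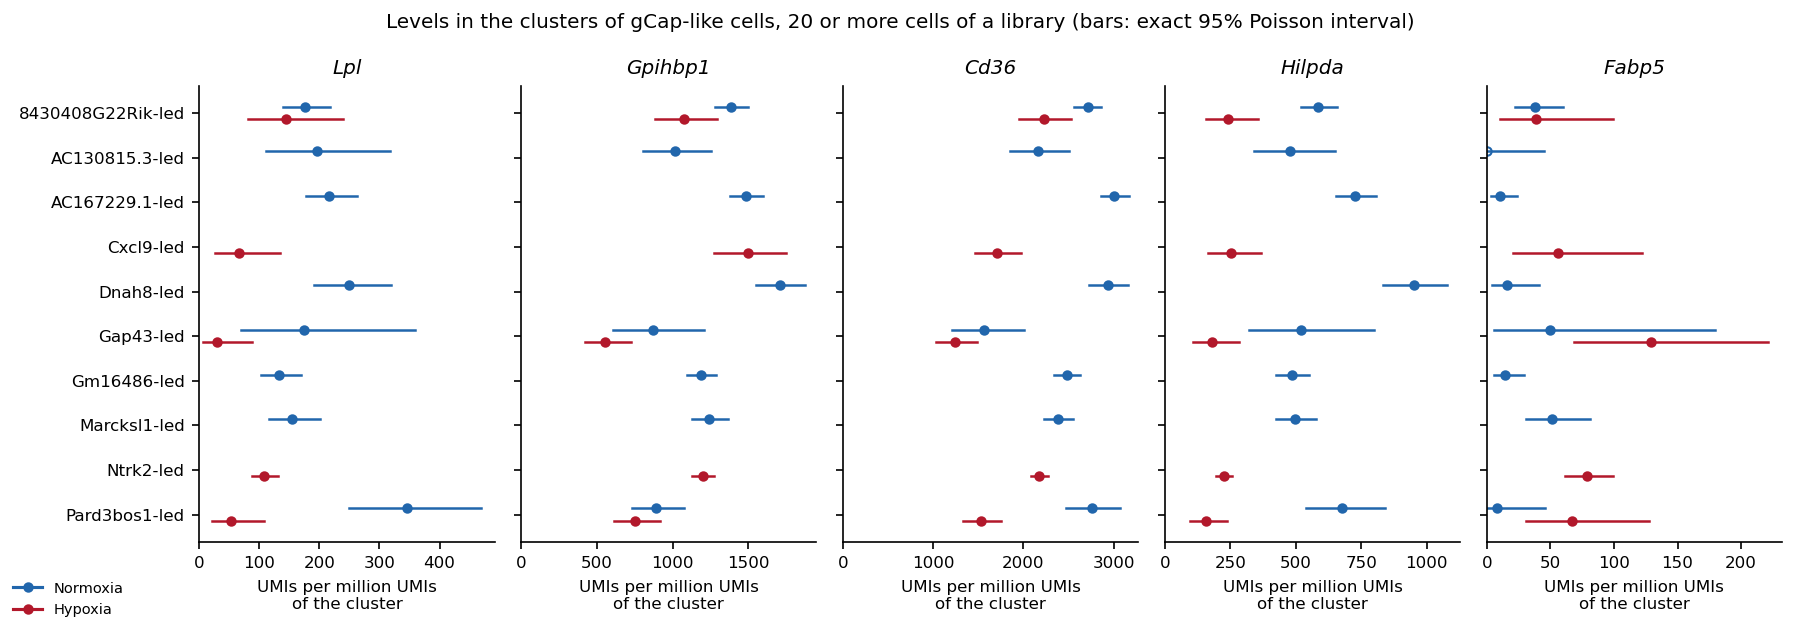
Levels of 5 genes in the clusters of gCap-like cells, each named by its leading gene, in CPM of the cluster on linear axes from 0, blue for normoxia and red for hypoxia, with exact 95% Poisson intervals, for clusters with at least 20 cells of that library. The red Hilpda points (157 to 253) all lie below the blue ones (477 to 950), and the Lpl, Gpihbp1 and Cd36 points overlap in range.

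Of the clusters outside the endothelium, the Cbr2-led one could be compared between the libraries, as the Pdgfra-led one had only 2 hypoxia cells. Gpihbp1 was at 140 CPM (84.1 to 218) in its 96 normoxia and 465 CPM (311 to 668) in its 33 hypoxia cells. Cd36 was at 375 CPM (279 to 493) and 417 CPM (272 to 611), with overlapping intervals. The 4 endothelial transcripts summed to 1103 and 1940 CPM there, and the part of endothelial RNA in these values was not tested. In the 81 normoxia cells of the Pdgfra-led cluster Gpihbp1 was at 13.9 CPM, Cd36 at 36.5 CPM and the endothelial transcripts at 149 CPM.

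Genes whose levels ran most closely with each member were taken over 10 class-by-library units of at least 20 cells, as the Pearson correlation of log2(CPM + 10) among 8044 genes. These units share libraries and the endothelial units share much of their expression, so the values describe resemblance only. Scarb1 ran with the endothelial cadherin Cdh5 (0.989) and with S1pr1 (0.989). Cd36 ran with Calcrl (0.976) and Tjp1 (0.974), and Gpihbp1 with the angiopoietin receptor Tek (0.966), Acer2 (0.958) and Itga6 (0.951). Lpl ran less closely with any gene, at most 0.909 for Gprin3, and Hilpda had 0.951 for Snrpb and 0.887 for Ccser2. Lipg ran with the pericyte genes Kcnk3 (0.997) and Notch3 (0.993), which belong to the marker list that named the pericyte-like class. Only the normoxia unit stood for that class. Apoe ran with Mme (0.975) and Twsg1 (0.973). Plin2 had Chpf at 0.934 and Fabp5 had Dchs1 at 0.928.

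The rest of lipid handling was read from 8 lists with 66 genes, of which 35 had at least 50 UMIs in EC-like cells. Of these, 6 were at least 1.5-fold higher in hypoxia and 2 at least 1.5-fold lower, with a median ratio of 1.07 against 1.03 over all genes measured and the shares of all genes given above. In the list of droplet coat, synthesis and lipolysis genes 3 of 7 were higher: Mgll, which cleaves monoglycerides, at 191 and 405 CPM (2.12, 1.91 to 2.36), Plin3, a droplet coat protein, at 22.7 and 44.6 CPM (1.96, 1.43 to 2.69), and Lipe, hormone-sensitive lipase, at 60.5 and 97.8 CPM (1.62, 1.32 to 1.97). Pnpla2, the adipose triglyceride lipase that Hilpda inhibits, was at 108 and 97.3 CPM (0.902, 0.754 to 1.08), and the triglyceride synthase Dgat1 had the smallest ratio of that list (0.847, 0.464 to 1.49).

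Among cholesterol efflux genes, 1 of 3 was higher: Abca1, which loads apolipoproteins with cholesterol, at 18.2 and 33.3 CPM (1.83, 1.28 to 2.62), while Abcg1 was at 58.3 and 61.0 CPM. Of 5 measured transcription factors of lipid handling, 2 were higher, Srebf1 with a ratio of 1.67 (1.06 to 2.60) and Ppard with 1.59 (1.01 to 2.48), and Foxo1 had the smallest ratio (0.684, 0.565 to 0.825). Of 8 mitochondrial oxidation genes, 1 was lower, Cpt1a, the carnitine palmitoyltransferase that admits fatty acids to mitochondria, at 81.9 and 53.8 CPM (0.657, 0.521 to 0.824), and Cpt2 had the largest ratio, at 9.25 and 13.8 CPM (interval 0.865 to 2.56). Of the lipoprotein receptors and scavengers, 2 were measured, and the scavenger receptor Stab1 was lower, at 136 and 75.8 CPM (0.559, 0.462 to 0.673), while Acvrl1 had a ratio of 0.854.

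None of the 4 measured fatty acid transporters and binding proteins, the 4 activation enzymes or the 2 lipoprotein lipase factors passed the fold in either direction. Their ratios ran from 1.08 for Cav1, the caveolar coat protein, to 1.39 for Got2 in the first list, from 0.738 for Acsl4 to 1.48 for Acsl5 in the second, and were 1.07 for both Lmf1 and Sel1l, which help lipoprotein lipase to fold and leave the endoplasmic reticulum, in the third. The lipase inhibitor Angptl4, a hypoxia-responsive gene in other tissues, gave 4 UMIs in normoxia and 1 in hypoxia EC-like cells, too few for a comparison.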

How the data were processed

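The deposited matrices held raw counts, whole numbers of UMIs per gene and cell, as the authors' Cell Ranger run wrote them (version 6.1.2 per the file headers, mm10 per the labels). From these counts, a cell was kept if 200 to 4000 of its genes were detected, the lower of the limits of 4000 and 6000 genes that the study gives (6000 was an alternative), and if mitochondrial UMIs made up no more than 5%. They were clustered with scanpy 1.11.5 (2000 variable genes without the 10 members, 30 components, 15 neighbours, Leiden resolution 2) and named from marker lists where at least 3 markers were detected in 25% of cells. Clusters low in UMIs stayed unnamed unless their markers led. Doublets were limited by the gene maximum alone, and Scrublet marked 1 normoxia and 3 hypoxia cells, which were removed in an alternative only. UMIs were summed per class and library and divided by the class total, with exact Poisson intervals for levels, exact conditional binomial intervals for ratios and Clopper-Pearson intervals for shares (scipy 1.17.1). Free RNA was not removed. With 1 library per condition no test was made. Members, lists and rules were chosen with earlier results of these data known. All 10 members, the 3 genes most like each, and the largest and smallest ratio of each list were to be named (1 of these genes is not reported here), and Pnpla2, Angptl4, Plin3, Lipe and Ppard were named after their values were seen. The computation of the ratio and its interval was checked on simulated Poisson counts, which hold no spread between cells, animals or libraries. Alternatives changed the cell filters, resolution, class naming, scaling, UMI minimum and thinning.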

Additional observations from a re-analysis of the deposited data

Results flagged for a closer look

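Both genes below went in opposite directions between classes in the same contrast of hypoxia over normoxia, with both intervals clear of 1, and the difference between the classes was not tested. Gpihbp1 was higher in venous-like cells (ratio 1.77) and lower in gCap-like cells (0.839). Over the class named alveolar fibroblast-like its ratio was 9.67. Cd36 was lower in gCap-like (0.755), aerocyte-like (0.722) and venous-like cells (0.766), and over the alveolar fibroblast-like class its ratio was 3.25. The fibroblast-like ratios compare unlike cells: 33 of the 35 hypoxia cells, against 96 of the 177 normoxia cells, came from the Cbr2-led cluster, 5 of whose 10 leading genes are genes of ciliated cells. Within it Cd36 was at 375 CPM in normoxia and 417 CPM in hypoxia with overlapping intervals, and Gpihbp1 at 140 and 465 CPM.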

How the results depend on the processing

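No paired analysis was possible because there is only 1 library of either condition. The counts of members past a fold stayed within 1.5 times of those reported under the alternatives run, except without the Ntrk2-led cluster, an alternative chosen after seeing the data. Then 5 members in place of 3 were at least 1.5-fold lower in hypoxia gCap-like cells, Cd36 (0.638) and Plin2 (0.611) being added, and 1 in place of 3 was at least 2-fold higher in gCap-like than aerocyte-like cells, since fewer than 50 UMIs of Lpl and Fabp5 were left in hypoxia. Within that range the EC-like count of members at least 1.5-fold lower in hypoxia was 3 in place of 4 under several alternatives. In most of these the Lpl ratio fell short of the fold, reaching 0.708 with up to 10% mitochondrial UMIs. Without cells with fibroblast UMIs the gCap-like count was 2 in place of 3, as fewer than 50 Apoe UMIs were left. Without a UMI minimum the counts were 5 in EC-like and 4 in gCap-like cells. Of 764 other values of single genes under 20 alternatives, 689 stayed within the counting interval of the value reported, 75 moved out of it, and 0 of those whose interval excludes 1 crossed 1. Ratios with wider intervals did cross it: as a mean over cells the few Lipg UMIs gave hypoxia over normoxia ratios of 3.54 in place of 0.609 in EC-like and 4.28 in place of 0.837 in gCap-like cells. The Hilpda ratio in gCap-like cells stayed at or below 0.391, and that of Apoe reached 0.285 with marker gates per cell. The other alternatives chosen after seeing the data left out the cell with most UMIs of each gene, left out cells with fibroblast UMIs, added the unnamed clusters or took the Ednrb-led aerocyte-like cluster alone. The hypoxia arterial-, venous-, pericyte- and lymphatic-like classes, of 21 cells or fewer, limit what can be said of their levels.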
